A study of Mus musculus with 17 samples.

Results

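The Schlafen genes form a mouse gene family that lies in 1 cluster on chromosome 11, and 7 of them (Slfn1, Slfn2, Slfn3, Slfn4, Slfn5, Slfn8 and Slfn9) were followed here across all conditions, out of 31091 genes with an identifier in the count table. The members were chosen by gene name, and the family was selected on an earlier look at these same samples, in which Slfn5 was among the genes that were lower in cDC2s with necroptotic than with live-cell medium. The comparison of RIPK3 with WT medium in cDC2s is therefore given as a description, without a test of any member. The other comparisons within cDC2s share samples with it. The cDC1 samples hold other cells, but both cell types were sorted after a joint culture and may share cultures and mice. Between cell types, samples of the same number deviated together in 19 of 24 pairs (correlation over 0.1). Tests in cDC1s may therefore not be independent of the selection.

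Polyadenylated RNA was sequenced in bulk from sorted conventional dendritic cells (cDCs), the cells that take up material from dying cells and present it to T cells. The cells came from spleens of female C57BL/6JRj mice that carried a B16 melanoma secreting FLT3L, a growth factor that expands cDCs in vivo, and all groups share this treatment. CD11c+ spleen cells, pooled from at least 2 mice, were cultured for 6 h in the presence of GM-CSF with the uncentrifuged medium of TC-1 cells, a mouse lung epithelial tumor line. They were then sorted into cDC1s and cDC2s. The medium came from cumate-treated TC-1 WT cells, which stay alive (WT), from TC-1-iBimS cells, in which cumate induces BimS and apoptosis (BimS), or from TC-1-iRIPK3 cells, in which cumate induces RIPK3 in a form that oligomerizes, and necroptosis (RIPK3). The lines that die were derived by cloning, and the mode of death and the engineered line cannot be told apart. There were 3 samples for each of cDC1 WT, cDC1 BimS, cDC1 RIPK3, cDC2 WT and cDC2 BimS, and 2 samples for cDC2 RIPK3, which gives 17 samples in 6 groups.

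Between 16095159 and 21645289 reads were counted on genes per sample (median 18986002). All 8 cDC1 markers exceeded 1 CPM (counts scaled to the library's total and TMM-normalised) in cDC1s, with sums of 1250 to 1411 CPM, against 68.0 to 111.8 CPM in cDC2s. The sums of 8 cDC2 markers were 272 to 339 CPM in cDC2s and 2.39 to 5.01 CPM in cDC1s. T and NK cell markers summed to at most 2.52 CPM and neutrophil markers to at most 3.49 CPM in any sample. B cell markers summed to 14.0 to 25.8 CPM in cDC1s and 27.6 to 47.8 CPM in cDC2s, and in cDC2s they were 35.4 to 41.5 CPM with WT, 27.6 to 33.5 CPM with BimS and 46.8 to 47.8 CPM with RIPK3 medium. Plasmacytoid DC markers, with Tcf4 as the main contributor, summed in cDC1s to 61.1 to 66.7 CPM with WT, 55.1 to 57.4 with BimS and 56.2 to 61.5 with RIPK3 medium. In cDC2s these sums were 193 to 217, 189 to 203 and 173 to 174 CPM in the same order. Macrophage and monocyte markers summed to 7.30 to 12.4 CPM in cDC1s and 24.3 to 37.0 CPM in cDC2s. The list for tumor epithelium summed to 78.1 to 93.4 CPM in cDC2s with WT medium and to 149 to 197 CPM with debris. Of these sums Thbs1 made up 49.0 CPM on average with WT, 144 with BimS and 137 with RIPK3 medium. The next largest part, Cdh1, which encodes E-cadherin, averaged 32.6, 25.5 and 20.2 CPM in the same order, while the epithelial keratins Krt8 and Krt18 stayed under 1 CPM on average in every group. The part of these other cells in the Schlafen levels was not tested.

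Schlafen proteins are named after the German verb for sleeping, because the first members were found as genes that slow the growth of developing T cells. Many members are induced by type I interferon, which acts through its receptor, the kinases JAK1 and TYK2 and the factor complex ISGF3, which holds IRF9 and STAT2. The short proteins SLFN1 and SLFN2 consist of the Schlafen core, SLFN3 and SLFN4 are of intermediate length, and the long proteins SLFN5, SLFN8 and SLFN9 carry an additional helicase-like domain. SLFN2 is required for the quiescence of T cells and monocytes.

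Per transcript length, Slfn2 led the family in WT medium. It had 162 ± 3.31 RPKM (CPM per kilobase of exon, SD, n = 3) in cDC1s and 256 ± 25.8 RPKM in cDC2s. In cDC1s, Slfn5 came next at 14.4 ± 0.740 RPKM and Slfn8 followed at 7.49 ± 0.412 RPKM (n = 3). In cDC2s the order was turned, with Slfn8 at 22.2 ± 1.66 RPKM and Slfn5 at 10.7 ± 1.28 RPKM (n = 3), and Slfn1 at 12.2 ± 1.79 RPKM differed from Slfn5 by less than its own SD. Slfn9, Slfn4 and Slfn3 were each under 1 RPKM in every group.

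**Figure D1:**
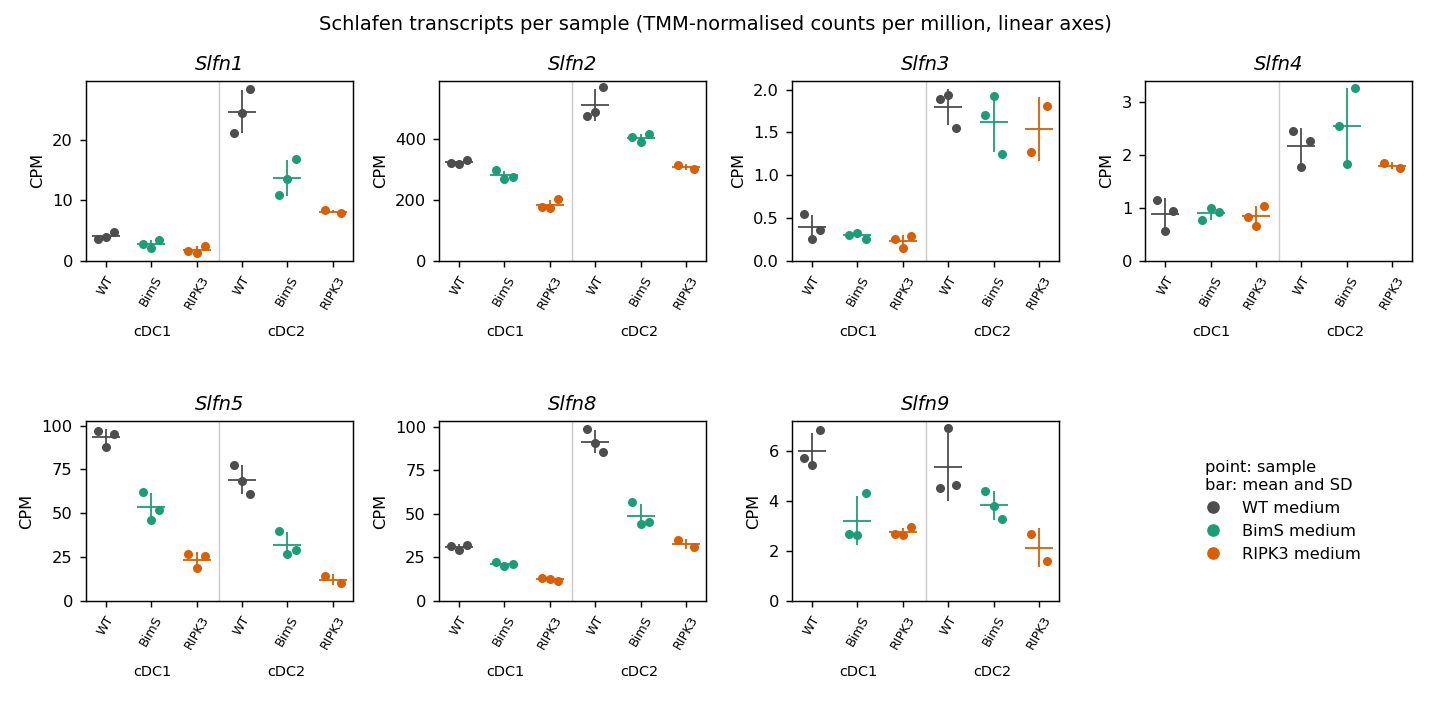
Level of each Schlafen transcript in CPM (linear axes from 0) in the 3 media for cDC1s and cDC2s; points are samples, horizontal bars are group means and vertical lines are SD. Slfn5 fell stepwise from 93.3 to 53.3 to 23.6 CPM in cDC1s, whereas Slfn4 stayed between 0.838 and 0.894 CPM on average.

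The comparison of cDC1s with cDC2s in WT medium asked how the lineages differ when no debris is given. Of the 7 members, 5 were lower in cDC1s than in cDC2s (Slfn1, Slfn2, Slfn3, Slfn4 and Slfn8), where 23.7% of all genes tested were lower in cDC1s, and none passed the test for a higher level in cDC1s, where 22.5% of all genes were higher. Slfn1 differed most, by -2.60 ± 0.17 (SE) on the log2 scale (adjusted p = 2.34e-12, edgeR's quasi-likelihood test with Benjamini-Hochberg adjustment over the 19082 genes of this fit; adjusted p below are from the same test over the genes of their own fit unless another setting is named), with 3.61, 3.97 and 4.69 CPM in the cDC1 samples and 21.2, 24.5 and 28.4 CPM in the cDC2 samples. Slfn3 followed at -2.20 ± 0.32 (adjusted p = 9.80e-07), Slfn8 at -1.58 ± 0.09 (adjusted p = 2.66e-15), Slfn4 at -1.29 ± 0.27 (adjusted p = 0.000238) and Slfn2 at -0.67 ± 0.07 (adjusted p = 4.51e-09). The groups of these 5 genes did not overlap. Slfn5 ran the other way, at 87.9 to 97.0 CPM in cDC1s and 61.0 to 77.6 CPM in cDC2s. Its groups did not overlap either, but the difference of 0.42 ± 0.17 missed the threshold (adjusted p = 0.0574). It passed under 11 of 26 alternative settings, among them a fit with the replicate number as a block (adjusted p = 8.92e-05). Slfn9 was close in both, at 5.99 ± 0.725 and 5.34 ± 1.35 CPM (SD, n = 3), and its difference of 0.16 had a 95% interval from -0.22 to 0.55.

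Summed over the 7 genes, the family fell in both cell types from WT to BimS to RIPK3 medium. The sum was 458 ± 13.3 CPM in cDC1s with WT medium, 362 ± 24.7 CPM with BimS medium and 226 ± 19.2 CPM with RIPK3 medium (SD, n = 3 each). In cDC2s it was 705 ± 41.1, 506 ± 21.3 and 366 ± 15.9 CPM (SD, n = 3, 3 and 2). Without Slfn2 the sum went from 136 to 81.8 to 41.6 CPM in cDC1s and from 195 to 102 to 58.4 CPM in cDC2s, a steeper course than that of Slfn2 alone. Slfn2 accordingly took a larger share of the family's counts, 70.4% with WT and 81.6% with RIPK3 medium in cDC1s and 72.3% and 84.1% in cDC2s, while the share of Slfn5 went from 20.4% to 10.4% and from 9.85% to 3.29%. In bulk samples, fewer cells that transcribe a gene and less RNA per cell cannot be told apart.

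**Figure D2:**
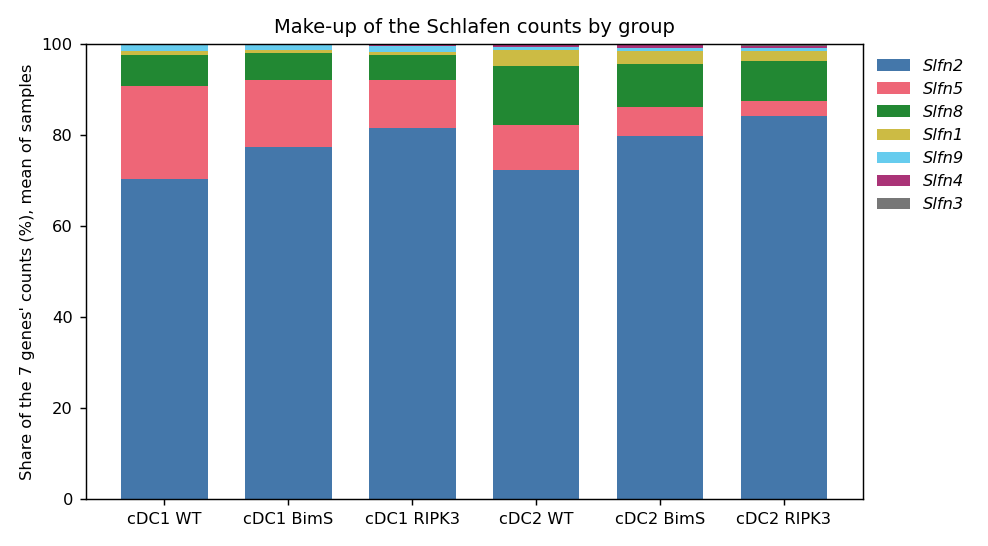
Mean share of each gene (%, stacked to 100) in the summed counts of the 7 Schlafen genes, for the 6 groups of cDC1 and cDC2 samples. The Slfn2 bar grows from 70.4% to 81.6% in cDC1s and from 72.3% to 84.1% in cDC2s as the Slfn5 bar shrinks.

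The comparison of apoptotic debris with live-cell medium in cDC1s asked what exposure to apoptotic debris changes. Of the 7 members, 4 were lower with BimS medium (Slfn2, Slfn5, Slfn8 and Slfn9) and none was higher, where 5.89% of the 19513 genes tested were lower and 7.31% higher. With necroptotic debris, 5 members were lower (the same 4 and Slfn1) and none was higher, where 8.18% of all genes were lower and 8.35% higher. Directly between the kinds of debris, 3 members (Slfn2, Slfn5 and Slfn8) were lower with RIPK3 than with BimS medium, where 2.21% of all genes were lower and 1.94% higher. The median change of the 7 members was -0.54, -1.14 and -0.61 on the log2 scale in these 3 comparisons, and that of all genes tested was 0.00, -0.01 and 0.00.

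In cDC2s with BimS medium, 4 members (Slfn1, Slfn2, Slfn5 and Slfn8) were lower than with WT medium and none was higher, where 3.21% of the 19239 genes tested were lower and 3.8% higher. With RIPK3 medium, all 7 members had a negative change against WT medium. These values carry no test, because the family was selected on this comparison. Of all genes tested there, 3.28% were lower and 3.93% higher. Between RIPK3 and BimS medium, 2 members (Slfn5 and Slfn8) were lower and none was higher, where 0.218% of all genes were lower and 0.161% higher. The last count was the least firm. It went from 2 to 5 Schlafen members with the replicate number as a block, a setting that took the calls over all genes from 73 to 2755, and without the second cDC2 RIPK3 sample, which leaves 1 sample in that group, no member and no gene of the table was called. In that fit the lone sample is assumed to vary like those of the other groups, and Slfn5 still stood at -1.15. The median change of the members was -0.49, -1.33 and -0.57 in the 3 comparisons, and that of all genes tested was -0.02, -0.02 and 0.00.

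**Figure D3:**
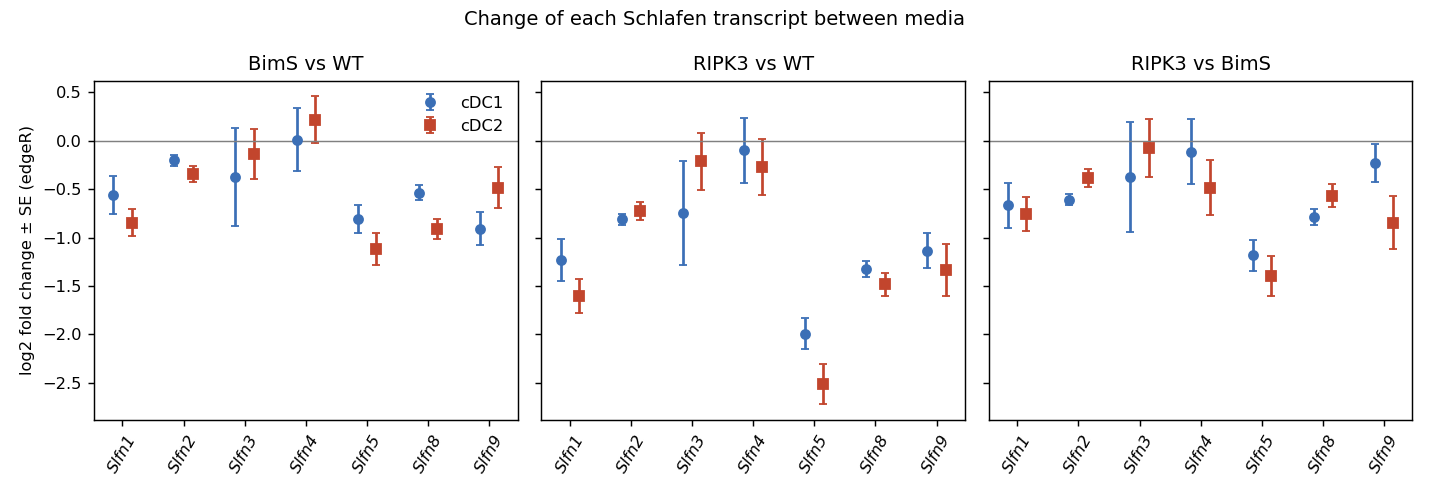
Log2 fold change ± SE of each Schlafen gene from edgeR in the panels BimS vs WT, RIPK3 vs WT and RIPK3 vs BimS, for cDC1s (circles) and cDC2s (squares). Slfn5 lies lowest in the comparison of RIPK3 with WT, at -1.99 in cDC1s and -2.51 in cDC2s, and Slfn3 and Slfn4 have error bars that reach or approach 0.

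Of the long members, Slfn5 fell most with RIPK3 medium. In cDC1s the samples had 97.0, 87.9 and 95.1 CPM with WT medium, 62.3, 45.9 and 51.8 CPM with BimS medium and 26.7, 18.5 and 25.5 CPM with RIPK3 medium. None of these groups overlapped. Slfn5 fell by 0.81 ± 0.15 on the log2 scale with BimS medium (1.75-fold, adjusted p = 0.0108), by 1.99 ± 0.16 with RIPK3 medium (3.98-fold, adjusted p = 0.000101) and by 1.18 ± 0.16 from BimS to RIPK3 medium (2.27-fold, adjusted p = 0.00916). The first of these calls was lost when WT sample 1, WT sample 3 or BimS sample 3 was left out (adjusted p up to 0.0556), with the change between -0.78 and -0.79.

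In cDC2s, Slfn5 had 77.6, 68.4 and 61.0 CPM with WT medium, 40.0, 26.7 and 29.0 CPM with BimS medium and 14.3 and 9.90 CPM with RIPK3 medium. The groups again did not overlap. The change was -1.12 ± 0.16 from WT to BimS medium (2.17-fold, adjusted p = 0.00118) and -1.39 ± 0.21 from BimS to RIPK3 medium (2.63-fold, adjusted p = 0.0150). Without RIPK3 sample 2, which leaves 1 sample in that group, the latter was -1.15. Each test shares samples with the comparison on which Slfn5 was selected, so its p-value can be too small. From WT to RIPK3 medium the mean went from 69.0 to 12.1 CPM, a difference of -2.51 ± 0.21 that is given without a test. Over the 6 groups Slfn5 ranked cDC1 WT, cDC2 WT, cDC1 BimS, cDC2 BimS, cDC1 RIPK3 and cDC2 RIPK3 from high to low, and the second overlapped with the third and the fourth with the fifth.

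Slfn8, a long member whose transgenic expression is known to impair T cell growth, fell in every comparison of media in cDC1s. Its cDC1 samples had 31.4, 29.0 and 32.3 CPM with WT medium, 22.4, 20.3 and 21.2 CPM with BimS medium and 13.1, 12.4 and 11.6 CPM with RIPK3 medium. The 3 groups were clearly apart, and the samples within each differed little. The changes were -0.54 ± 0.08 for BimS against WT (adjusted p = 1.58e-06), -1.32 ± 0.08 for RIPK3 against WT (adjusted p = 3.45e-15) and -0.79 ± 0.09 for RIPK3 against BimS (adjusted p = 1.39e-07). In cDC2s the samples had 98.8, 90.4 and 85.2 CPM with WT medium, 56.6, 44.2 and 45.2 CPM with BimS medium and 34.7 and 30.6 CPM with RIPK3 medium. These groups did not overlap. The change from WT to BimS medium was -0.91 ± 0.10 (1.89-fold, adjusted p = 5.26e-06), and from WT to RIPK3 medium the means differed by -1.48 ± 0.12. The change of -0.57 ± 0.12 from BimS to RIPK3 medium was just past the threshold (adjusted p = 0.0390) and was lost under 8 of 18 alternative settings, among them leaving out WT sample 2, BimS sample 1 or 2, or either RIPK3 sample (adjusted p up to 0.938). The level that remained in cDC2s with RIPK3 medium, 32.7 ± 2.89 CPM (SD, n = 2), overlapped with that of cDC1s in WT medium, 30.9 ± 1.70 CPM (n = 3).

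Slfn9, the third long member, was scarce. It had 114, 107 and 151 counts in cDC1s with WT medium, 52, 56 and 84 counts with BimS medium and 52, 52 and 51 counts with RIPK3 medium. Both debris groups lay under the WT group and overlapped with each other. The fall was 0.91 ± 0.17 on the log2 scale with BimS medium (decreased by 46.7%, adjusted p = 0.000174) and 1.14 ± 0.18 with RIPK3 medium (decreased by 54.5%, adjusted p = 7.29e-06), and the difference between both was -0.23 with a 95% interval from -0.63 to 0.17. In cDC2s the counts were 88, 121 and 86 with WT medium, 72, 75 and 55 with BimS medium and 42 and 27 with RIPK3 medium. The samples did not overlap between these groups once scaled to CPM. Its change of -0.49 ± 0.21 with BimS medium missed the threshold (adjusted p = 0.210) and passed it with the replicate number as a block (-0.49, adjusted p = 0.0141). The change of -0.85 ± 0.27 from BimS to RIPK3 medium missed it too (adjusted p = 0.281, and 0.000538 with the block). Single samples moved both values: without WT sample 2 the former was -0.26, and the latter was -1.27 without RIPK3 sample 1 and -0.50 without RIPK3 sample 2. The means with WT and RIPK3 medium, 5.34 and 2.12 CPM, differed by -1.33 ± 0.26, or by -0.98 without RIPK3 sample 2.

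Of the short members, Slfn2 was by far the most abundant and changed least in proportion. The cDC1 samples had 321, 316 and 329 CPM with WT medium, 297, 268 and 274 CPM with BimS medium and 177, 173 and 203 CPM with RIPK3 medium. The groups did not overlap. Slfn2 decreased by 13.2% with BimS medium (-0.20 ± 0.05, adjusted p = 0.00846), decreased by 43.1% with RIPK3 medium (-0.81 ± 0.06, adjusted p = 1.38e-13) and decreased by 34.4% from BimS to RIPK3 medium (-0.61 ± 0.06, adjusted p = 5.82e-09). The small change with BimS medium did not pass in limma on log2(count + 1) (adjusted p = 0.148) or in 1 fit of all samples (adjusted p = 0.0779).

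In cDC2s, Slfn2 had 473, 488 and 569 CPM with WT medium, 405, 390 and 416 CPM with BimS medium and 314 and 301 CPM with RIPK3 medium. WT sample 3 stood above the other two, and the groups did not overlap. The change with BimS medium was -0.34 ± 0.08 (adjusted p = 0.0115), which was lost without BimS sample 1 (adjusted p = 0.0513) or BimS sample 2 (adjusted p = 0.0750). From BimS to RIPK3 medium it was -0.39 ± 0.09 (adjusted p = 0.0748, and 1.62e-10 with the replicate number as a block). The means with WT and RIPK3 medium differed by -0.73 ± 0.09.

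Slfn1, which can arrest the growth of thymocyte lines when overexpressed, was mainly a cDC2 transcript here. In cDC2s it had 21.2, 24.5 and 28.4 CPM with WT medium, 10.9, 13.6 and 16.8 CPM with BimS medium and 8.33 and 7.92 CPM with RIPK3 medium. No groups overlapped. Slfn1 fell by 0.85 ± 0.14 on the log2 scale with BimS medium (1.80-fold, adjusted p = 0.000521), differed by -0.76 ± 0.17 between RIPK3 and BimS medium (adjusted p = 0.0672, and 9.10e-06 with the replicate number as a block), and by -1.60 ± 0.17 between RIPK3 and WT medium. In cDC1s the counts were 72, 78 and 104 with WT medium, 54, 46 and 67 with BimS medium and 32, 25 and 42 with RIPK3 medium. The WT group stood above both others. The fall with RIPK3 medium was 1.23 ± 0.22 (2.34-fold, adjusted p = 4.41e-05). That with BimS medium, -0.56 ± 0.20, came to an adjusted p of 0.0561 and to 0.0132 with the replicate number as a block, and that between RIPK3 and BimS medium, -0.67 ± 0.23, to 0.104 and 0.0245.

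The members of intermediate length passed no test between media. Slfn4, known as a gene that is induced in activated macrophages, had 23, 11 and 21 counts in cDC1s with WT medium, 15, 21 and 18 with BimS medium and 16, 13 and 18 with RIPK3 medium. In cDC2s it had 48, 31 and 42, then 42, 36 and 55, then 29 and 30 counts. The media overlapped throughout once scaled to CPM. Its difference in cDC1s was 0.01 for BimS against WT (95% interval -0.65 to 0.67) and -0.10 for RIPK3 against WT (-0.77 to 0.57), and the sign of both turned when single samples were left out. In cDC2s the difference for BimS against WT was 0.22 (-0.28 to 0.72), and all 3 sample pairs of the same number were higher with BimS medium. Slfn3, described in T cell and intestinal cell differentiation, had 11, 5 and 8 counts in cDC1s with WT medium, 6, 7 and 5 with BimS medium and 5, 3 and 5 with RIPK3 medium. In cDC2s it had 37, 34 and 29, then 28, 38 and 21, then 20 and 31 counts, and the media overlapped there as well. Its differences from WT medium were -0.37 (-1.40 to 0.65) and -0.75 (-1.84 to 0.35) in cDC1s and -0.14 (-0.68 to 0.40) for BimS medium in cDC2s, so that in cDC1s changes as large as those of Slfn8 lay within the intervals of Slfn3.

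The fall was compared between cell types by an interaction test, cDC1 change minus cDC2 change, in 1 fit of all samples. No member passed in edgeR for BimS against WT or for RIPK3 against BimS, where 0.859% and 0.0314% of all genes passed. None passed with DESeq2 or limma either, and at an unadjusted p under 0.05 the counts were 1 and 1. The single one for BimS against WT was Slfn8, with a difference of 0.38 ± 0.12 (95% interval 0.12 to 0.63, adjusted p = 0.224), and it passed with the replicate number as a block (adjusted p = 0.0257). The other was Slfn2, with -0.23 (-0.45 to -0.01, adjusted p = 0.959) for RIPK3 against BimS. Slfn5 differed by 0.31 (-0.22 to 0.85) for BimS against WT. The interaction for RIPK3 against WT, which 1.14% of all genes passed, contains the cDC2 comparison on which the family was selected and is given for the members without a test. The difference there was 0.51 for Slfn5, which contains the cDC2 value on which Slfn5 was selected. The interaction for RIPK3 against BimS shares the cDC2 RIPK3 samples with that comparison.

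The family was then read beside the interferon pathway, by lists that hold no Schlafen gene. Of 21 interferon ligand genes, 7 had a row, and none reached more than 4 counts in any sample. Ifnb1 had at most 4 counts, in cDC1s with RIPK3 medium. Of 12 receptor and JAK-STAT genes, 5 were lower and 0 higher in cDC1s with BimS medium and 3 were lower with RIPK3 medium, and in cDC2s 2 were lower with either medium. Here and for the lists that follow, the counts for RIPK3 against WT in cDC2s are a description, because the family was selected on that comparison. Those lower in all 4 comparisons were Irf9, the DNA-binding part of ISGF3, at -0.37 and -0.45 in cDC1s and -0.66 and -0.82 in cDC2s, and Stat2, its activating part, at -0.32 and -0.63 and at -0.64 and -0.92 (log2 fold change for BimS and RIPK3 against WT). Ifnar1 and Ifnar2, the type I interferon receptor chains, ranged from -0.15 to 0.17 in these comparisons, and of them only Ifnar1 passed, at -0.15 in cDC1s with BimS medium (adjusted p = 0.0251). Ifngr1, a chain of the interferon gamma receptor, passed there too, at -0.22 (adjusted p = 0.00654). Ifnlr1, the interferon lambda receptor chain, was lower in cDC1s with both media, at -0.97 (adjusted p = 0.0255) and -1.61 (adjusted p = 0.000619). Of 8 interferon regulatory factors and inhibitors, 1 was lower and 2 were higher in cDC1s with BimS medium and 3 and 3 with RIPK3 medium, and in cDC2s the counts were 3 and 1 and then 2 and 1.

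Among 40 interferon-stimulated genes, 15 were lower and 1 higher in cDC1s with BimS medium and 24 were lower and 1 higher with RIPK3 medium, with median changes of -0.43 and -0.76. In cDC2s 31 and 34 were lower and none was higher, with medians of -0.72 and -1.38. The range for RIPK3 against WT went in cDC1s from Ifi44 at -1.81 to Oasl1 at 0.49, and Slfn5 at -1.99 lay under all 40. In cDC2s it went from Ifit1 at -2.66 to Ifitm3 at -0.10, with Slfn5 at -2.51 between Ifit3b at -2.56 and Mx2 at -2.38. Slfn2, at -0.81 and -0.73, was near the list's median in cDC1s and above it in cDC2s. Of 20 cell division genes, 2 were lower and 1 higher in cDC1s with BimS medium and 5 were lower with RIPK3 medium, and in cDC2s 1 was higher with BimS medium and none was called with RIPK3 medium. In cDC1s, 5.89% of all genes were lower and 7.31% higher with BimS medium, and 8.18% and 8.35% with RIPK3 medium. In cDC2s the shares were 3.21% and 3.8%, and then 3.28% and 3.93%. The counts of the interferon lists stand beside the same shares. Whether the cell division genes depart from these shares was not tested, and nothing particular to cell division is read from the counts.

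**Figure D4:**
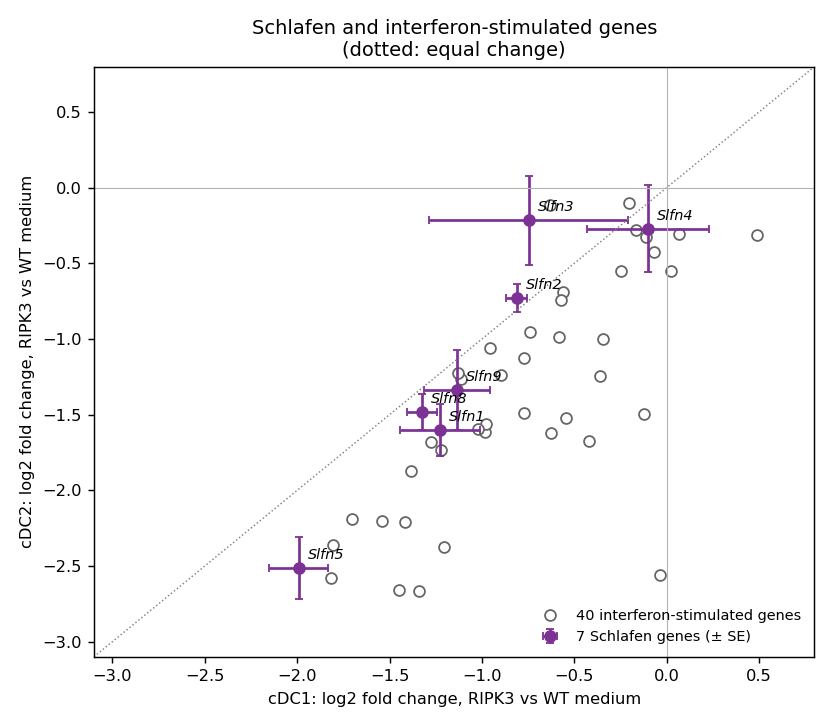
Log2 fold change for RIPK3 against WT medium in cDC1s (x axis) and cDC2s (y axis) for 40 interferon-stimulated genes (open circles) and the 7 Schlafen genes (filled, ± SE); the dotted line marks equal change. Slfn5 lies at the low end in both cell types, Slfn1, Slfn8 and Slfn9 in the middle, and Slfn4 at -0.10 and -0.27.

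The members that fell also varied together. Over the 17 samples, after each cell type's mean had been subtracted, log2 CPM of Slfn5 and Slfn8 correlated with r = 0.979 and those of Slfn2 and Slfn5 with r = 0.938, whereas Slfn4 reached at most 0.253 with any other member. These values include the differences between media, and the samples share cultures and depth, so they describe the pattern and carry no test. By the same measure, among 7780 other genes, Slfn5 was most like Ifit2 (r = 0.981), an interferon-induced RNA-binding protein gene, Cbfa2t3 (0.977), which encodes a transcriptional corepressor, and Parp12 (0.974), an interferon-inducible ADP-ribosyltransferase gene. Slfn8 was most like Slamf7 (0.971), Itpripl1 (0.971) and Eif2ak2 (0.969), the gene of the double-stranded RNA sensor PKR. Slfn2 was most like St3gal4 (0.961), Ifit2 (0.941) and Ms4a4c (0.936), and Slfn1 was most like Xaf1 (0.954), Mapkapk3 (0.953) and Mxd4 (0.952). For Slfn9 the genes were Parp12 (0.912), Itpripl1 (0.897) and Parp14 (0.893). Slfn3 and Slfn4 had weaker neighbours in Trim37 (0.785), Vps41 (0.766) and Leprot (0.750) and in H2-Q6 (0.797), Gbp8 (0.762) and Upf3a (0.749).

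The 7 genes lie in the order Slfn5, Slfn9, Slfn8, Slfn2, Slfn1, Slfn4 and Slfn3 within chr11:82842100-83109101 (GRCm39), a stretch of 267 kb, with Slfn8 and Slfn9 on the minus strand and the others on the plus strand. The members that fell in at least 1 tested comparison are the first 5 in this order, and Slfn4 and Slfn3, which start 224 and 240.0 kb after Slfn5, stand at the far end. The 5 nearest protein-coding genes tested before the cluster, Zfp830, Lig3, Rffl, Rad51d and Nle1, did not pass in any of the 6 comparisons between media (0 of 30 tests in edgeR, lowest adjusted p = 0.148, with 2 at an unadjusted p under 0.05). They ranged from -0.26 to 0.09 for RIPK3 against WT in cDC1s. After the cluster, Ap2b1, an adaptor subunit gene of clathrin-mediated endocytosis, was at 0.08 and 0.0031 in cDC1s with BimS and RIPK3 medium and at 0.17 and 0.05 in cDC2s. Rasl10b, 1700020L24Rik and Mmp28 had at most 4, 7 and 20 counts in any sample. These genes after the cluster did not pass either (lowest adjusted p = 0.114, for Mmp28), though 6 of their tests had an unadjusted p under 0.05, 4 of them of Mmp28. The noncoding gene Slfnlnc, next to Slfn3 and named here after its values were seen, was higher in cDC1s with both debris media. Its changes were 0.26 ± 0.06 (adjusted p = 0.00138) and 0.21 ± 0.06 (adjusted p = 0.00886). In cDC2s with BimS medium it stood at 0.26 without passing (adjusted p = 0.168). There samples 1, 2 and 3 had 62.5, 64.4 and 84.1 CPM with WT and 77.5, 83.2 and 93.1 CPM with BimS medium. The value of this gene with the replicate number as a block was not read.

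**Figure D5:**
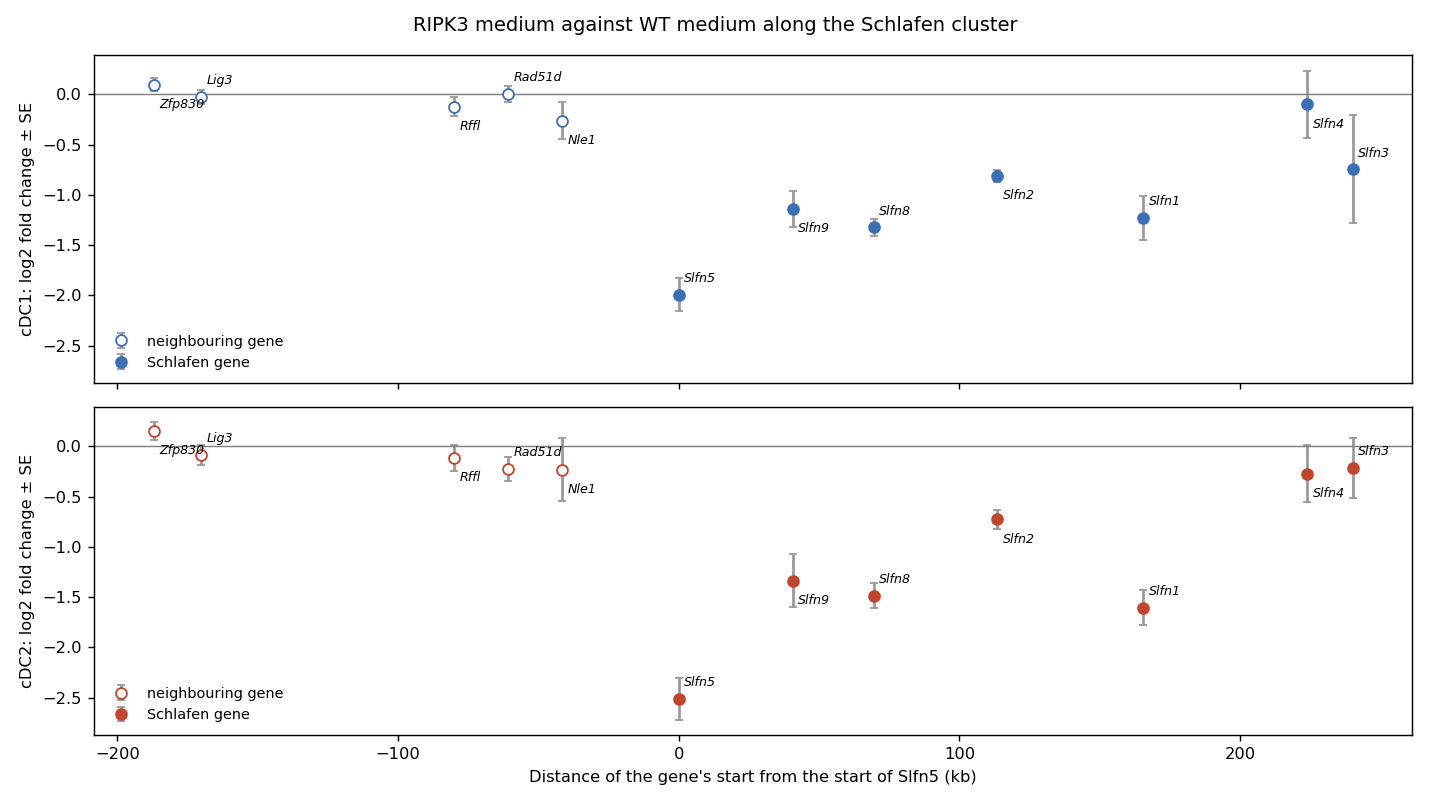
Log2 fold change ± SE for RIPK3 against WT medium by distance of each gene's start from the start of Slfn5 (kb), in cDC1s and cDC2s; filled points are Schlafen genes and open points are the 5 protein-coding genes before the cluster (those after it are not drawn). These neighbours lie between -0.26 and 0.16, the first 5 Schlafen genes lie lower, and Slfn4 and Slfn3 lie at -0.10 and -0.75 in cDC1s and at -0.27 and -0.22 in cDC2s.

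Because most members fell together with interferon-stimulated genes, their promoters were read for the core of the interferon-stimulated response element, the site of ISGF3. The windows are those of RefSeq for each gene's start, 250 bases before to 50 bases after, and were placed on GRCm39 by exact match. The motif searched was GAAANNGAAA on both strands. It was present for 3 of the 7 members (Slfn5, Slfn8 and Slfn9), and 3.99% of 27025 genes with such a window hold it. No member had the other interferon motif searched, TTCNNNGAA, which 9.55% of genes hold and which can share its letters GAA with the first. The sequences of the 3 members with a match are shown with the match in capitals, and that of Slfn2 is shown as the most abundant member, which has none.
Slfn5: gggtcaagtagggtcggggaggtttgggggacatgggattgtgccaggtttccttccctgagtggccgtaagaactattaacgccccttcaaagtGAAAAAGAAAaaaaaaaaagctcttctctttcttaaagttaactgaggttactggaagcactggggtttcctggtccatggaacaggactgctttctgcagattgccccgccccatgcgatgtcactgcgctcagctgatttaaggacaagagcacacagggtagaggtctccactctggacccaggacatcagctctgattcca
Slfn8: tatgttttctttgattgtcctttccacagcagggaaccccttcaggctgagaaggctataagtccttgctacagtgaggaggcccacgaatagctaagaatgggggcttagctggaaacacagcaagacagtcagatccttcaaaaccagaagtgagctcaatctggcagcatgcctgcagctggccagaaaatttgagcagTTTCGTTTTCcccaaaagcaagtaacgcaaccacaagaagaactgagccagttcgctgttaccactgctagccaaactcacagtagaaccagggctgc
Slfn9: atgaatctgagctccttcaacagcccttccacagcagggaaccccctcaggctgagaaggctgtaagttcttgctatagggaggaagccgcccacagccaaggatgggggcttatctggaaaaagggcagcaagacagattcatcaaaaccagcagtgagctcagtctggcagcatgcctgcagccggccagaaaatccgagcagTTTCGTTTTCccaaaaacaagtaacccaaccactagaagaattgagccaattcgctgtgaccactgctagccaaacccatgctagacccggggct
Slfn2: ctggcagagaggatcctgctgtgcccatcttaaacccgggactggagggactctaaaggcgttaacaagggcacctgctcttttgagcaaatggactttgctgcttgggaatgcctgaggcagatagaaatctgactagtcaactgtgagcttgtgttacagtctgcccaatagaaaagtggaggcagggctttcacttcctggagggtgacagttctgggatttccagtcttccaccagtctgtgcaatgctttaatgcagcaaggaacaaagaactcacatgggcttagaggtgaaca

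The windows lie at chr11:82842678-82842977 (plus strand), chr11:82911587-82911886 (minus strand), chr11:82882607-82882906 (minus strand) and chr11:82955688-82955987 (plus strand). In Slfn8 and Slfn9 the match is on the opposite strand, begins 48 and 45 bases before the RefSeq start and has the same letters, TTTCGTTTTC. In Slfn5 it begins 155 bases before the RefSeq start at GAAAAAGAAA and runs into a stretch of A. In the annotation that gave the gene coordinates, Slfn5 starts at 82842100 and Slfn2 at 82955609, so by those starts both windows lie inside the gene and the Slfn5 match lies after the start. Slfn8 has another RefSeq start, from which the same match begins 136 bases before. A match is a description of the letters and not a measured site.

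Some reads cannot be assigned to 1 member with certainty. Of the 54-base windows in the transcripts of Slfn8, 31.3% occur identically in transcripts of another gene, mainly the antisense gene Gm74281 and the paralog Slfn10, and so do 9.79% of those of Slfn9, mainly in Slfn10 and Slfn8. For Slfn5 it was 20.9%, mostly its antisense gene Slfn5os, which had at most 1 count in any sample. For Slfn1, Slfn2, Slfn3 and Slfn4 the shares were 0.346%, 3.14%, 7.6% and 8.52%. Whether the counting used strand is not given in the sources used here, so reads of a gene and its antisense partner cannot be told apart. When Slfn8 and Slfn9 were summed to 1 feature, the change with RIPK3 medium was -1.29 in cDC1s (adjusted p = 1.40e-15) and that with BimS medium in cDC2s was -0.89 (adjusted p = 7.79e-06).

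Of the relatives outside the 7, Slfn14, a ribosome-associated endoribonuclease gene, had 5 to 7 counts in cDC1s with WT medium and 0 to 2 counts in cDC2s (adjusted p = 0.0240), and no count in the 5 cDC2 samples with debris, which allows up to 3 counts in each. In cDC1s it did not change detectably between media. Slfnl1 on chromosome 4 had at most 3 counts in any sample. Slfn10-ps was not analysed here.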

How the data were processed

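The 17 libraries of polyadenylated RNA were sequenced in pairs of 54 bases, and the authors trimmed them with SeqPurge, aligned them to GRCm39 with STAR 2.7.10a and counted genes by Ensembl annotation. Whether counting used strand is not given in the sources used here. The deposited tables hold raw counts per gene, which were used for all tests, and normalized values on a log2 scale made by the authors, which entered 1 alternative. A share of 0.0258% to 0.0366% of the counts lay on 148 lines without an identifier and was left out. Symbols came from GENCODE (30854 of 31091 identifiers matched). Total counts were 16095159 to 21645289 per sample.

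Genes with a count in at least 50% of the samples of a fit were tested with edgeR 4.0.16 (R 4.3.3) by quasi-likelihood with TMM normalization, separately for 9 cDC1 and 8 cDC2 samples, and in 1 fit of 17 samples for the comparison of cell types and the interactions. P-values were adjusted by Benjamini-Hochberg over all genes, with a threshold of 0.05. The labels do not say that samples of a group came from separate cultures, so p-values measure only the spread between these samples. Alternatives were limma 3.58.1 on log2(count + 1), on log2 CPM and on the deposited log2 values, DESeq2 1.42.0, RLE size factors, edgeR's filterByExpr and no filter, a replicate block, 1 fit of all samples, Slfn8 and Slfn9 summed, and each sample left out. Samples of the same replicate number deviated together within each cell type (correlation over 0.1 in 9 of 9 cDC1 and 7 of 7 cDC2 pairs), though not in every pair between cell types (19 of 24). Blocked values therefore stand beside results of the members within a cell type where they change a call.

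The members and all lists were chosen with earlier results of these data known. All 7 members are named with every sample's value. Also named by rule are Slfn14, Slfn10-ps and Slfnl1, the 3 genes most correlated with each member (among genes averaging at least 3 log2 CPM), interferon receptor and signaling genes, the extremes of the interferon-stimulated list, and 5 tested protein-coding neighbours on each side of the cluster. Some of these are not reported here. The scripts were tested on simulated data. Promoter windows are from RefSeq, and figures were drawn with matplotlib 3.10.9.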

Additional observations from a re-analysis of the deposited data

How the results depend on the processing

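Slfn1, Slfn2, Slfn5, Slfn8 and Slfn9 stayed below 0 for BimS and RIPK3 against WT medium in both cell types under all 19 alternatives in cDC1s and all 18 in cDC2s (18 and 17 for Slfn9, which has no value of its own when summed with Slfn8). The count of Schlafen genes called for RIPK3 against BimS medium in cDC2s, 2 as reported, was 4 with limma on log2(count + 1), DESeq2 or 1 fit of all samples, 1 with limma on log2 CPM or on the deposited values or with filterByExpr, and 5 without a filter or with the replicate block. It ranged from 0 to 4 when single samples were left out, with 0 without RIPK3 sample 2, 1 without RIPK3 sample 1, WT sample 2 or BimS sample 2, and 4 without WT sample 1 or 3. The interaction count for BimS against WT, 0 as reported, was 1 (Slfn8) with the replicate block and ranged from 0 to 1 when single samples were left out, with 1 without cDC2 BimS sample 1. In the joint fit the replicate block also gave Slfn5 a difference of 0.43 between cDC1s and cDC2s (adjusted p = 8.92e-05), and under the block no other call of a member changed beyond those given beside the results. The cause of these differences was not tested.

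Signs turned only where no call was made. Slfn4 for BimS against WT in cDC1s was -0.0051 with limma on the deposited values, and the Slfn1 interaction for RIPK3 against BimS was -0.064 with the replicate block. With single samples left out, Slfn3 in cDC2s ranged from -0.29 to 0.018 (BimS against WT), -0.48 to 0.0048 (RIPK3 against WT) and -0.35 to 0.14 (RIPK3 against BimS), and its interaction for BimS against WT from -0.45 to 0.077. Slfn4 in cDC1s ranged from -0.22 to 0.23 (BimS against WT), -0.33 to 0.12 (RIPK3 against WT) and -0.29 to 0.039 (RIPK3 against BimS), and its interactions from -0.44 to 0.0058 (BimS against WT) and -0.074 to 0.37 (RIPK3 against WT). Slfn9 ranged from -0.35 to 0.046 (cDC1, RIPK3 against BimS) and from -0.16 to 0.61 (interaction, RIPK3 against WT), and the interactions for RIPK3 against BimS from -0.19 to 0.28 for Slfn1 and -0.051 to 0.50 for Slfn5. Counts of at most 23 per sample limit what can be said of Slfn3 and Slfn4 in cDC1s.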
